A study of Mus musculus with 8 samples.

Results

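The histone genes of mouse CD4 T cells were followed in follicular helper T (TFH) cells and follicular regulatory T (TFR) cells and in the naïve CD4 T cells and regulatory T cells (Tregs) sorted beside them. Members were taken by gene name on the array: the clustered Hist1, Hist2, Hist3 and Hist4 genes and the variant genes named H1f, H2af or H3f3. Of 64 such names, 49 clustered and 15 variant, 54 genes were kept (43 clustered, 11 variant), those whose chosen probe exceeded background clearly, by the scanner's own call, in both arrays of 1 cell type or more. The same filter left 15764 genes in all. Of the 54, 46 were well above background on all 8 arrays (37 clustered, 9 variant), and counts are given over these 46 unless stated, because a gene detected only in the cell type where it is high has to differ. The rule uses names and detection, and it was set with earlier results of these data known. On 3 arrays only, and so just inside the filter, were Hist1h2ae, Hist1h2bg and H2afb1. Of the 10 names that did not pass, H2afy3 was well above background on 1 array and the other 9 on none.

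The arrays were hybridized with RNA of peripheral lymph node (pLN) cells, pooled from 8 to 15 mice of both sexes aged 8 to 14 weeks, at day 12 (d12) or day 25 (d25) after s.c. immunization with KLH in alum. All mice were of strain B6.Cg-Foxp3<tm1Mal>, in which an EGFP reporter at the Foxp3 locus marks Foxp3+ cells, so every group carried the reporter and none came from unimmunized mice. Naïve cells and TFH cells were GFP- and Tregs and TFR cells GFP+. The follicular sorts took PD1hi cells, GL7+ for TFH and either GL7+ or GL7- for TFR, and the other sorts took PD1-GL7- cells. There was 1 array for each cell type and day, so n = 2 arrays per cell type, and day is also the slide for part of the design: all d12 arrays lay on slide 1, naïve and TFH at d25 on slide 2 and Treg and TFR at d25 on slide 3.

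Histones H2A, H2B, H3 and H4 form the core around which DNA is wrapped, and H1 binds the linker DNA between cores. Clustered histone genes are transcribed mainly during S phase, when new DNA has to be packaged, and their mRNAs usually end in a conserved stem-loop in place of a poly(A) tail. Variant genes are for the most part, but not all, expressed through the cell cycle and give mainly polyadenylated mRNAs. They supply proteins that replace the clustered forms at chosen places, such as H2A.Z (H2afz, H2afv) at promoters, the H2A.X protein at DNA breaks and macroH2A (H2afy, H2afy2) in silent chromatin. Follicular T cells of a germinal center reaction are known to contain dividing cells. The labelled RNA was made with a kit that primes from the poly(A) tail, so for clustered genes a signal depends on the polyadenylated share of the mRNA, or on internal priming, as well as on the amount of mRNA, and these cannot be told apart here.

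The sorted populations carried their defining markers. Foxp3 was between 37266 and 49262 relative units (RU, the normalized signal) in Tregs and TFR cells and at most 358 RU in the others, and Cxcr5, the follicle homing receptor, was at least 35322 RU in the follicular cells and at most 4384 RU in the rest. Between 46.3% and 50.4% of probes were well above background per array, and no histone probe was saturated. The summed signal of 10 B cell markers was 14798 RU on the TFH array of d25 and 2367 RU on that of d12. In all other libraries it was 4856 to 9079 RU. Of the 10 markers, 8 passed the filter and 1, Pax5, was on no array well above background. The median TFH minus naïve difference of the 8 was -1.45 at d12 and 1.47 at d25 on the log2 scale. The 2 CD8 T cell markers summed to 4957 to 5118 RU in naïve and 2114 to 3174 RU in TFH cells, and to 4208 to 4565 RU in Tregs and 2110 to 2235 RU in TFR cells. Markers of antibody-secreting cells summed to 19847 to 24412 RU in naïve and 38660 to 44942 RU in TFH cells, mostly Xbp1, with Tnfrsf17 on no array well above background, and to 30770 to 32648 RU in Tregs and 25880 to 34242 RU in TFR cells. Results that rest on TFH cells are therefore also given without the d25 array where that changes them, and the part of RNA from other cells in the results was not tested. In bulk samples, fewer dividing cells and less histone RNA per cell cannot be told apart.

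The probes decide what can be separated. The probes of 9 H2A genes are near copies of each other at the 3′ end of the coding sequence, aligned to the Hist1h2ak probe over at least 30 columns at 88.3% identity or more. They are shown because most of the increases in TFH cells came from them. In the lines below the probe is written 5′ to 3′ on the sense strand, with bases that differ from the Hist1h2ak probe inside the local alignment in capitals. Bases outside the aligned stretch, at either end, are in lower case and were not compared.
Hist1h2ak: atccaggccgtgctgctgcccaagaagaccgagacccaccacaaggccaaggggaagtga
Hist1h2ah: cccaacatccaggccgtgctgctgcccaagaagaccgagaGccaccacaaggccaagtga
Hist1h2af: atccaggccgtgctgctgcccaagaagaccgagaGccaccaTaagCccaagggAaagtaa
Hist2h2aa2: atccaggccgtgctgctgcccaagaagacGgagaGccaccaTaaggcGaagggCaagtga
Hist2h2ac: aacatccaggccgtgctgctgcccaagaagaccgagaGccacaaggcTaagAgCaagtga
H2afj: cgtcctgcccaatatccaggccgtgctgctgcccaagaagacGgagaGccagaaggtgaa
The variant H2afj shared 36 of 38 aligned bases with the clustered probe, so its signal on this probe may hold RNA of clustered H2A genes. The other members of the group were Hist1h2ag, Hist1h2an and Hist1h2ao. In all, 13 members had a probe that the annotation assigns to more than 1 histone gene, and these are reported under the array's name as uncertain.

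Some probes reach the end of the mRNA. The histone stem-loop, searched as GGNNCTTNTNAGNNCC on the sense strand, was complete in 5 of 78 histone probes, all 5 clustered, and in 7 of all 39429 probes (0.0178%). The 5 loops are shown because they are the mark of a clustered histone transcript, with bases that differ from the commonest of them in capitals.
Hist1h3a, Hist1h3i and Hist2h2bb: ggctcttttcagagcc
Hist1h3g: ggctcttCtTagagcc
Hist1h4m: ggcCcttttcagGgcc
After the loop, between 3 and 6 further bases lay within the probe. Of these 5 genes, Hist1h3a, Hist1h3g and Hist1h3i rose in TFR cells, and Hist2h2bb and Hist1h4m fell in TFH cells.

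TFH cells were compared with naïve CD4 T cells, and TFR cells with Tregs, to ask what changes when a conventional or a regulatory T cell takes on the follicular phenotype. In TFH cells 8 of 10 clustered H2A genes and the variants H2afz, H2afv and H2afx rose, 7 of 9 H4 genes and 3 of the 4 clustered H1 genes kept fell, and of 6 H3 genes limma called 0 (1 at an unadjusted p under 0.05). Of the 46 genes, 12 were higher and 17 lower in TFH cells (limma, adjusted p below 0.05), while 18.4% and 26.8% of all genes on all arrays were called higher and lower. In TFR cells 8 of 10 clustered H2A, 5 of 6 H3 and 6 of 9 H4 genes rose, and 2 of the H2A genes fell. Of the 46, 26 were higher and 5 lower, beside 15.7% and 21.9% of all such genes. Over the 54 genes kept the counts were 17 higher and 18 lower in TFH cells (all genes tested, 20.9% and 25.6%) and 32 higher and 6 lower in TFR cells (18.7% and 20.9%). The median log2 difference of the 46 was -0.23 in TFH and 0.47 in TFR cells, against -0.10 in both contrasts over the 13299 genes detected on all arrays. Without the 9 near-identical H2A probes, 3 of 37 genes were higher and 17 lower in TFH cells, and 17 higher and 5 lower in TFR cells. With 2 arrays per cell type, the error comes from an additive model of cell type and day with 3 residual degrees of freedom, and whether the arrays of 1 cell type came from separate sorts than those of another is not stated. Leaving out 1 array cut the calls among the 54: to 9 lower in TFH cells without the naïve array of d12 and 10 without that of d25, and to 18 higher in TFR cells when the d12 TFR array was left out and 20 without that of d25 or without the Treg array of d12, while without the d25 TFH array 19 were higher and 13 lower in TFH cells.

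**Figure D1:**
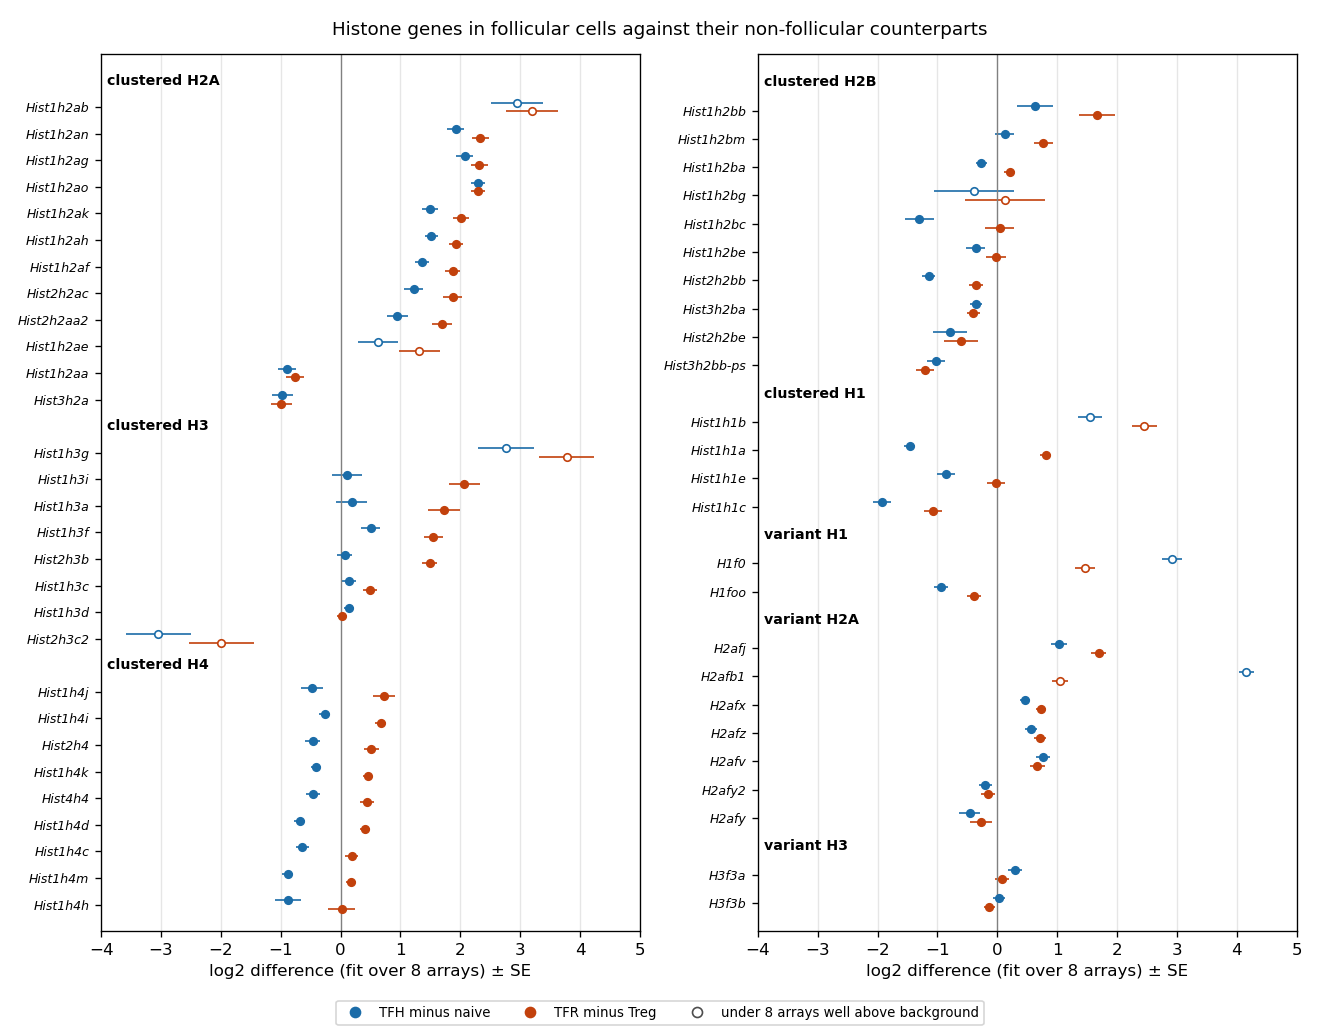
Fitted log2 difference (x axis) with its SE for the 54 histone genes kept, by class and family: TFH minus naïve (blue) and TFR minus Treg (orange), open symbols for genes well above background on fewer than 8 arrays. Most clustered H2A genes lie to the right in both contrasts, and the 9 H4 genes lie left of 0 in blue and at or right of 0 in orange.

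Of the 12 genes called higher in TFH cells, 8 were clustered H2A genes. Of 10 clustered H2A genes on all arrays, 8 rose in TFH and the same 8 in TFR cells, with medians over the 10 of 1.43 and 1.90. All 9 genes with near-identical probes were called higher in both, by 0.95 to 2.30 in TFH cells and 1.69 to 2.33 in TFR cells on the log2 scale, but they share sequence and are not 9 independent measurements. At d12 and d25, in that order here and below, Hist1h2ah was at 121159 and 98972 RU in naïve cells, 390834 and 250407 RU in TFH cells, 143393 and 101738 RU in Tregs and 535652 and 395900 RU in TFR cells. Both follicular populations lay above both non-follicular ones without overlap. The Hist1h2ah probe is assigned to 4 histone genes, so these values are uncertain. The fitted rise was 2.86-fold in TFH cells (log2 1.51 ± 0.11 SE, adjusted p = 7.76e-04) and 3.81-fold in TFR cells (1.93 ± 0.11, adjusted p = 8.38e-04). Hist1h2ao, with a probe assigned to 2 histone genes, rose by the same log2 amount, 2.30 ± 0.11, in each. It was at 69721 and 48557 RU in naïve cells and 370868 and 219906 RU in TFH cells, and at 111840 and 69843 RU in Tregs and 506617 and 371711 RU in TFR cells. Again the follicular arrays were all higher, and of these 9 genes it was the one also called between Tregs and naïve cells (0.60 ± 0.11, adjusted p = 0.0358), a call that was lost in 11 of 18 alternatives, the slide block among them. A second probe of Hist1h2ak, which lies 5′ of the first and was measured by itself, rose by 2.15 ± 0.21 in TFH and 2.70 ± 0.21 in TFR cells, more than the first (1.49 ± 0.14 and 2.01 ± 0.14). These signals are near the top of the array's range, where the normalization weighs most: with scaling to the 75th percentile and no quantile step, the median of the 12 clustered H2A genes kept was 0.95 in place of 1.43 in TFH cells and 1.71 in place of 1.90 in TFR cells, with 9 and 10 still called higher.

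The clustered H2A genes with distinct probes split: Hist1h2ab rose in both contrasts, and Hist3h2a and Hist1h2aa, named after their values were seen, fell in both. Hist1h2ab, whose probe runs into the stem-loop, was at 423 and 117 RU in TFH cells and not well above background in naïve cells, at least 3.81-fold higher (adjusted p = 0.00584). In TFR cells it reached 1367 and 473 RU, against 91 and 85 RU in Tregs, with no overlap (3.19 ± 0.44, adjusted p = 0.00629). Hist1h2ae was well above background in both TFR arrays and in no Treg array, at least 1.95-fold higher. It was kept through TFR cells alone, so this is a description. Hist3h2a, the H2A gene of a small cluster on chromosome 11, was at 17751 and 15336 RU in naïve cells, 7248 and 9720 RU in TFH cells, 11766 and 11260 RU in Tregs and 6010 and 5572 RU in TFR cells. Its groups did not overlap in either contrast, with differences of -0.98 ± 0.17 (adjusted p = 0.0104) and -0.99 ± 0.17 (adjusted p = 0.0124). Hist1h2aa fell by 0.89 and by 0.77 on the log2 scale.

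**Figure D2:**
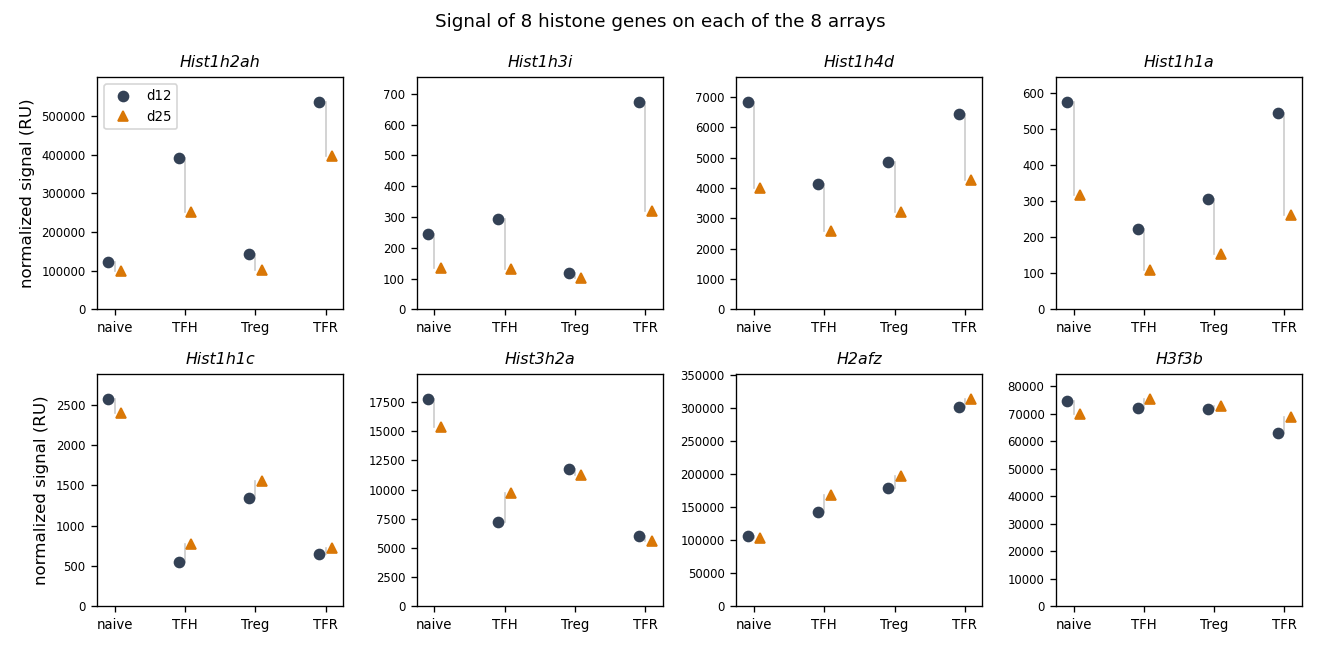
Normalized signal in RU (y axis, from 0) on each of the 8 arrays for 8 histone genes, d12 as circles and d25 as triangles, 1 array per point. Hist1h2ah, with a probe assigned to 4 histone genes, is high in both follicular cell types. Hist1h3i is high in TFR cells, Hist1h4d and Hist1h1a are within each day lowest in TFH cells, and H3f3b stays between 63044 and 75328 RU.

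The clustered H3 genes rose in TFR cells. Of 6 detected on all arrays, 5 were higher in TFR cells, with a median of 1.52, and in TFH cells none was called by limma (1 at an unadjusted p under 0.05), with a median of 0.14. Hist1h3i was at 118 and 103 RU in Tregs and 673 and 318 RU in TFR cells. Naïve cells gave 243 and 135 RU and TFH cells 293 and 131 RU. TFR arrays lay above all others at the same day, while naïve and TFH arrays overlapped. Its difference was 2.07 ± 0.26 in TFR cells (adjusted p = 0.00485) and 0.11 ± 0.26 in TFH cells (adjusted p = 0.75). Hist1h3a behaved alike, with 1.73 ± 0.26 in TFR (adjusted p = 0.00844) and 0.19 ± 0.26 in TFH cells (adjusted p = 0.592). Hist1h3f and Hist2h3b, added after their values were seen, rose by 1.55 ± 0.16 and 1.49 ± 0.12 in TFR cells and were at 0.50 ± 0.16 and 0.07 ± 0.12 in TFH cells. Hist1h3g, well above background only in the follicular cells, was at 235 and 79 RU in TFH cells and 1118 and 382 RU in TFR cells. That is at least 2.33-fold above naïve cells and at least 12.3-fold above Tregs, where no array was well above background. Hist1h3g was kept through the follicular cells alone, so this is a description. Hist2h3c2 went the other way, from 225 and 300 RU in naïve cells to not well above background in TFH cells, at least 5.91-fold lower. In TFR cells it fell from 235 and 261 RU in Tregs to 89 and 43 RU, with 1 of the TFR arrays well above background. It was kept through naïve cells and Tregs alone, so this too is a description.

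The H4 genes, all named after their values were seen, split the follicular populations. By the probe chosen, every one of the 9 H4 genes had a lower fitted value in TFH than in naïve cells. Each had a higher one in TFR cells than in Tregs, and the medians were -0.48 and 0.44. On each day by itself, 9 of 9 were lower in TFH cells, and 8 of 9 were higher in TFR cells on both days. The chosen probes of Hist1h4c, Hist1h4j, Hist1h4k and Hist1h4m are assigned to more than 1 H4 gene. Some of these assignments overlap, so the 9 are not independent measurements. Called lower in TFH cells were 7, and called higher in TFR cells 6. All H4 genes encode the same protein. Hist1h4d was at 6831 and 4000 RU in naïve cells, 4142 and 2572 RU in TFH cells, 4846 and 3194 RU in Tregs and 6427 and 4249 RU in TFR cells. Groups overlapped across days, but within each day TFH was below naïve and TFR above Treg. Its differences were -0.68 ± 0.09 (adjusted p = 0.00415) and 0.41 ± 0.09 (adjusted p = 0.023), and a second probe of the gene gave -0.43 ± 0.10 and 0.56 ± 0.10. The second probe of Hist2h4 was at odds with its first: it fell by 1.09 ± 0.12 in TFH cells and was at -0.38 ± 0.12 in TFR cells, where the first was at 0.52 ± 0.12. A second Hist1h4i probe did not fall in TFH cells (-0.0005 ± 0.15, first probe -0.27 ± 0.09). In TFR cells it was at 0.52 ± 0.15 (adjusted p = 0.0504). A second Hist1h4k probe moved like its first, by -0.38 ± 0.10 and 0.53 ± 0.10. The H4 medians stayed between -0.70 and -0.41 in TFH cells and between 0.37 and 0.50 in TFR cells under every alternative, but the calls rested on single arrays: in TFR cells limma called 0 without the TFR array of d12 or either Treg array, 1 without the TFR array of d25, and 3 without either naïve array. In TFH cells it called 2 and 3 lower without the naïve array of d12 and of d25, and 4 without the TFH array of d25, and with no day term it called 1 lower in TFH and 0 higher in TFR cells.

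H2B did not move as a family. Of 9 clustered H2B genes on all arrays, 4 fell in TFH cells and none rose, and in TFR cells 2 rose and 2 fell, with medians of -0.36 and -0.02. Of all genes on all arrays, 18.4% were called higher and 26.8% lower in TFH cells, and 15.7% and 21.9% in TFR cells. The members described here were chosen after their values were seen. Hist1h2bb was at 260 and 189 RU in Tregs and 878 and 566 RU in TFR cells, a rise of 1.67 ± 0.30 (adjusted p = 0.0134), and did not pass in TFH cells (0.63 ± 0.30, adjusted p = 0.149). Hist1h2bm, with a probe shared by several H2B genes, rose by 0.77 ± 0.15 in TFR cells (adjusted p = 0.0177). Hist1h2bc, known to give polyadenylated mRNA as well, was at 1428 and 1586 RU in naïve cells and 807 and 463 RU in TFH cells, a fall of 1.30 ± 0.24 SE on the log2 scale, and was at 0.04 ± 0.24 in TFR cells. The chromosome 11 members Hist3h2ba and Hist3h2bb-ps, the second a pseudogene by name, fell in both follicular populations, as their neighbour Hist3h2a did. Hist3h2bb-ps fell by 1.02 ± 0.15 and by 1.20 ± 0.15, and Hist3h2ba by 0.35 ± 0.11 and by 0.40 ± 0.11.

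The linker histones went in different directions. Hist1h1c, a clustered H1 gene that is also expressed in resting cells, was at 2571 and 2399 RU in naïve cells, 556 and 772 RU in TFH cells, 1348 and 1550 RU in Tregs and 651 and 724 RU in TFR cells. Naïve cells were highest, Tregs between and both follicular populations lowest, with no overlap in either contrast. It fell by 1.92 ± 0.15 in TFH cells (adjusted p = 9.08e-04) and by 1.07 ± 0.15 in TFR cells (adjusted p = 0.00685) and was lower in Tregs than in naïve cells (-0.78 ± 0.15, adjusted p = 0.0424). The last call was lost in 9 of 18 alternatives, the slide block and the fit without day among them, and the TFR call without any 1 of the Treg and TFR arrays. Hist1h1b rose in both. Naïve cells gave 153 and 46 RU, the latter not well above background, and TFH cells 351 and 173 RU, a difference of 1.55 ± 0.20 (adjusted p = 0.00415). Tregs gave 166 and 74 RU and TFR cells 858 and 431 RU, a difference of 2.46 ± 0.20 (adjusted p = 0.00195). Hist1h1a, singled out after its values were seen, was at 574 and 316 RU in naïve cells, 223 and 108 RU in TFH cells, 306 and 152 RU in Tregs and 545 and 261 RU in TFR cells. On each day naïve and TFR cells were high and TFH cells lowest. It fell by 1.46 ± 0.09 in TFH cells (adjusted p = 5.29e-04) and rose by 0.81 ± 0.09 in TFR cells (adjusted p = 0.00414). Hist1h1e, also chosen after its values were seen, fell by 0.85 ± 0.15 in TFH cells and was at -0.02 ± 0.15 in TFR cells.

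Among the variant linker histones, H1f0, which accumulates in non-dividing and differentiated cells, was at 78 and 76 RU in naïve cells, not well above background, and at 474 and 721 RU in TFH cells. The fitted rise of H1f0 was 7.59-fold (log2 2.92 ± 0.17, adjusted p = 3.95e-04), and under the alternatives its log2 value ran down to 1.72. In Tregs it was at 119 and 157 RU and in TFR cells at 342 and 418 RU, a difference of 1.46 ± 0.17 (adjusted p = 0.0040). Follicular arrays were above all others for this gene. H1foo, the oocyte linker histone, was dim, at 282 and 322 RU in naïve cells and 159 and 154 RU in TFH cells, and fell by 0.95 ± 0.12 (adjusted p = 0.0033), while in TFR cells it was at -0.39 ± 0.12 (adjusted p = 0.0528).

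Of the 6 variant H2A genes on all arrays, 4 rose in TFH and 4 in TFR cells, with medians of 0.52 and 0.69. Of all genes on all arrays, 18.4% and 15.7% were called higher. H2afz, which encodes H2A.Z, was at 106030 and 103393 RU in naïve cells, 142885 and 168906 RU in TFH cells, 178546 and 197045 RU in Tregs and 301405 and 313936 RU in TFR cells. The order was naïve, TFH, Treg, TFR with no overlap between neighbours. Its differences were 0.57 ± 0.10 in TFH (adjusted p = 0.0102), 0.71 ± 0.10 in TFR cells (adjusted p = 0.00701) and 0.84 ± 0.10 between Tregs and naïve cells (adjusted p = 0.0123). The TFH call was lost in 2 of 18 alternatives, 75th percentile scaling alone among them (0.24, adjusted p = 0.118). The TFR call was lost in 3 of 18, and the call between Tregs and naïve cells in 5, the slide block among them. The second H2afz probe was at 0.43 ± 0.13 (adjusted p = 0.0523) in TFH and 0.41 ± 0.13 (adjusted p = 0.0668) in TFR cells. H2afv, encoding the other H2A.Z, rose by 0.77 ± 0.12 (adjusted p = 0.00693) and 0.67 ± 0.12 (adjusted p = 0.0129), and its second probe by 1.09 ± 0.18 and 0.83 ± 0.18. The H2afv call in TFR cells was lost in 5 of 18 alternatives. H2afx, whose protein is phosphorylated at DNA breaks, rose by 0.46 ± 0.09 (adjusted p = 0.0115) and 0.73 ± 0.09 (adjusted p = 0.00423). The macroH2A genes H2afy (-0.46 ± 0.18 and -0.28 ± 0.18) and H2afy2 (-0.20 ± 0.11 and -0.16 ± 0.11) did not pass in either contrast with the probe chosen, while another probe of H2afy fell by 0.77 ± 0.17 in TFH cells (adjusted p = 0.0184) and a further one by 0.49 ± 0.13 in TFR cells (adjusted p = 0.0415).

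H2afj and H2afb1 need their probes beside them. The H2afj probe shown above rose by 1.04 ± 0.13 in TFH (adjusted p = 0.00378) and 1.69 ± 0.13 in TFR cells (adjusted p = 0.0017), close to the clustered genes it resembles. A second H2afj probe, further 3′ on chromosome 6, was at 3432 and 3333 RU in naïve cells, 2376 and 2183 RU in TFH cells, 2215 and 1962 RU in Tregs and 1753 and 1377 RU in TFR cells. That probe fell in both contrasts, by 0.57 ± 0.11 (adjusted p = 0.0131) and by 0.42 ± 0.11 (adjusted p = 0.036), so no direction is given for H2afj, which the counts above hold by the first probe. H2afb1, listed by RefSeq as H2al2a, was at the floor of 20 RU in naïve cells and Tregs, 328 and 390 RU in TFH cells and 36 and 47 RU in TFR cells. It was at least 6.13-fold higher in TFH than in naïve cells, with both TFH arrays and 1 TFR array well above background. It was kept through TFH cells alone, so this is a description. H2afb1 genes are known for expression in male germ cells.

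No difference of the replacement H3 genes was called in TFH or TFR cells. H3f3b was at 74763 and 69843 RU in naïve cells, 72155 and 75328 RU in TFH cells, 71716 and 72661 RU in Tregs and 63044 and 68875 RU in TFR cells. All 4 cell types overlapped except that TFR cells were below the rest. H3f3a was at 134149 and 144978 RU in naïve cells and 144562 and 201944 RU in TFH cells. Neither H3f3a (0.29 ± 0.12 and 0.08 ± 0.12) nor H3f3b (0.03 ± 0.09 and -0.13 ± 0.09) passed the test in TFH or TFR cells, and at an unadjusted p under 0.05 the count was also 0 of 2. Another H3f3b probe was at 0.08 ± 0.08 and 0.09 ± 0.08. A further, dimmer one was at -0.34 ± 0.26 in TFH and -0.78 ± 0.26 in TFR cells (limma, adjusted p = 0.0669).

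The change on becoming follicular differed between Foxp3+ and Foxp3- cells for part of the family. TFH cells were GL7+ and TFR cells GL7+ or GL7-, so Foxp3 status and GL7 gate cannot be told apart in it. The difference of the differences, (TFR minus Treg) minus (TFH minus naïve), was called positive for 11 of 46 genes and negative for 0 (27 at an unadjusted p under 0.05), beside 3.35% and 3.51% of all genes on all arrays. Of the 11, 7 were H4 genes. The others were Hist1h1a, Hist1h3i, Hist2h3b and Hist2h2bb. Of these 11 genes, Hist1h4c, Hist1h4k, Hist1h4m and Hist2h3b had chosen probes assigned to more than 1 histone gene. A second Hist2h2bb probe fell more in TFR than in TFH cells (-2.09 ± 0.26 and -1.21 ± 0.26), the reverse of its first (-0.35 ± 0.11 and -1.15 ± 0.11). That second probe was well above background on 4 arrays and at the floor of 20 RU in TFR cells. Hist1h1a had the highest value, 2.27 ± 0.13 (adjusted p = 0.00356). H2A genes were not called here (5 of 10 at an unadjusted p under 0.05), with a median of 0.41, nor were the 9 variant genes on all arrays (2 at an unadjusted p under 0.05), with a median of 0.14, against 0.79 for the 37 clustered genes and 0.00 for all genes. H2afb1 and H1f0 had negative values, -3.11 and -1.46, which rest on signals at the floor or not well above background in naïve cells and are no exact difference. Over the 54 genes, 11 were positive and 2 negative (all genes tested, 4.03% and 4.46%). The 11 became 5 with the slide as a block, 0 without the day term, 5 without the d25 TFH array, 3 without the d25 Treg array, and 1 without any other single array but the d12 TFH array, where 12 were called.

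**Figure D3:**
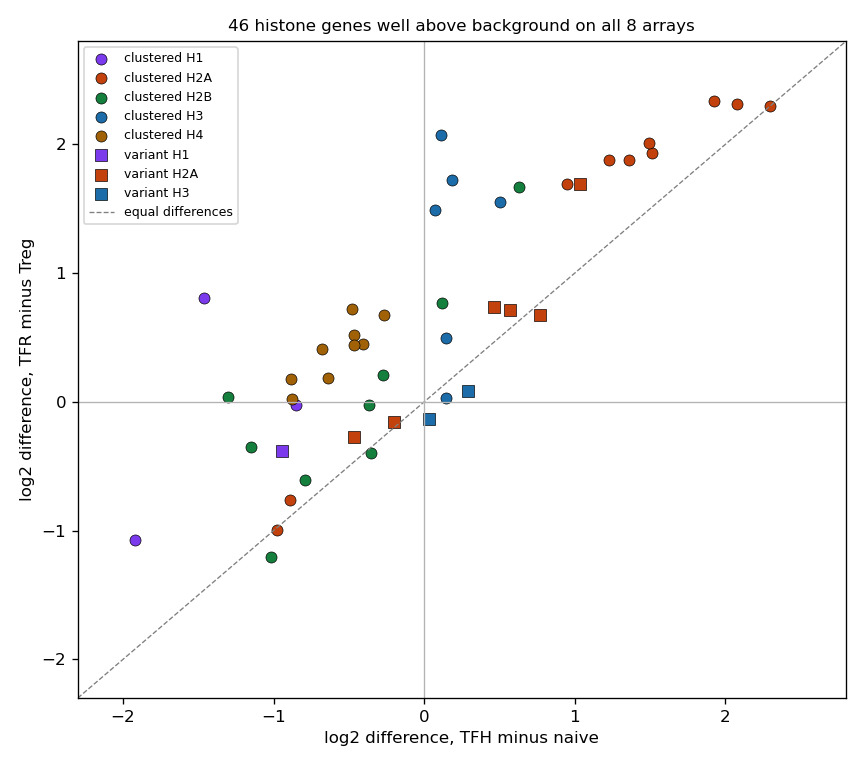
Log2 difference of TFH over naïve cells (x axis) against TFR over Tregs (y axis) for the 46 histone genes on all arrays, circles clustered and squares variant, colored by family, with a dashed line for equal differences. Most H2A genes lie at upper right, mainly above the line, and Hist3h2a, Hist1h2aa, H2afy and H2afy2 at lower left. H4 genes lie at upper left, and clustered H3 genes above 0 with little change in TFH cells.

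TFR and TFH cells share the PD1hi gate, but TFH cells were GL7+ and TFR cells GL7+ or GL7-, and their d25 arrays were on different slides. GL7 gate and Foxp3 status therefore cannot be told apart in their direct comparison. It gave 24 of 46 genes higher and 1 lower in TFR cells (all such genes, 9.98% and 9.82%), and 27 higher and 2 lower of the 54 (11.6% and 10.5%). Medians on d12, when both arrays lay on 1 slide, were 0.53 for H4, 0.50 for clustered H2A and 0.92 for clustered H3. On d25 they were 0.72, 0.74 and 1.06. The gene called lower was Hist3h2ba, named after its values were seen (-0.64 ± 0.11, adjusted p = 0.0171). H2afz differed by 0.99 ± 0.10 (adjusted p = 0.00477) and its second probe by 1.00 ± 0.13 (adjusted p = 0.00973). The number of calls leaned on few arrays: 3 of 54 were higher with the slide as a block, 1 and 2 without the TFR array of d12 and of d25, 12 without the d25 TFH array, 16 without either Treg array and 17 without either naïve array. Tregs differed from naïve cells in 2 genes higher and 4 lower of 46 (4.7% and 3.69%), and in 3 higher and 4 lower of 54 (5.89% and 3.98%), with 0 of each under the slide block or without either Treg array. H4 genes were lower in all 9 fitted values, by a median of -0.31, with none called by limma and 6 at an unadjusted p under 0.05.

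Clustered histone signals were lower at d25 than at d12. Of 37 clustered genes, 28 were lower at d25 in all 4 cell types (75.7%), against 2 of 9 variant genes (22.2%), 29.3% of a DNA replication list and 19.7% of all genes tested. The median d25 minus d12 difference of the clustered genes was -0.29 in naïve cells, -0.69 in TFH cells, -0.37 in Tregs and -0.51 in TFR cells. The gene called in the fit was Hist1h1a (-0.995 ± 0.066, adjusted p = 0.0468), 1 of 46, with 32 at an unadjusted p under 0.05, beside 0.0226% higher and 0.0602% lower of all genes on all arrays (0.019% and 0.0507% of all genes tested). No day array shares a slide with the other day, so day and slide cannot be told apart.

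**Figure D4:**
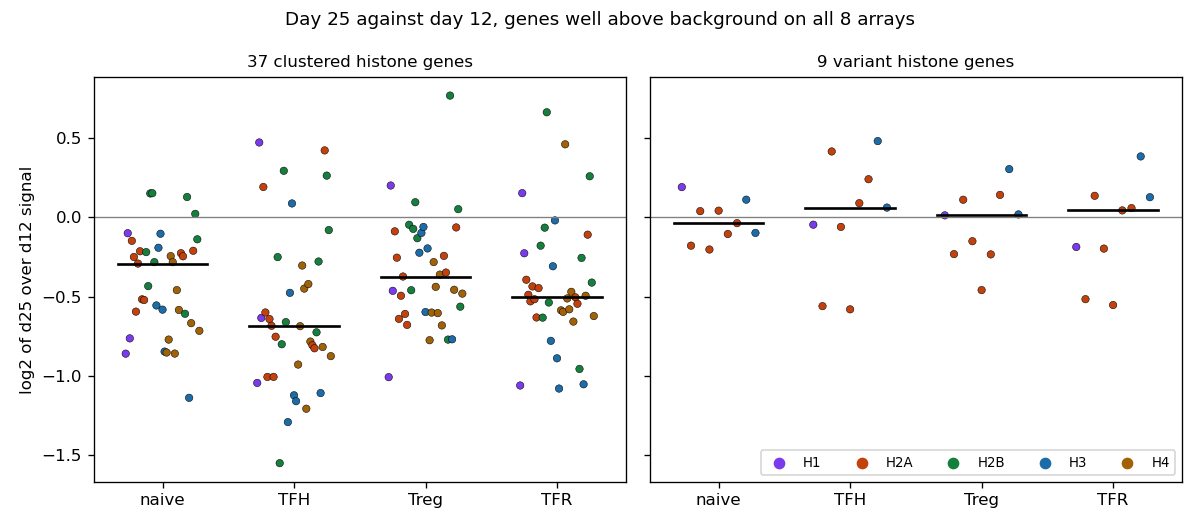
Log2 of the d25 over the d12 signal (y axis) in each cell type for 37 clustered (left) and 9 variant (right) histone genes, 1 point per gene colored by family, with the median as a bar. Clustered genes lie mainly below 0 in all 4 cell types, and the variant medians are near 0.

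Lists of genes that work with histones moved in part with them. All 18 measured G2 and mitosis genes, Top2a among them, rose in both follicular populations (medians 2.89 and 2.79; 12 of 12 among those on all arrays). Mki67, the proliferation antigen, was at 475 and 352 RU in naïve cells, 3621 and 2370 RU in TFH cells, 879 and 942 RU in Tregs and 6708 and 6573 RU in TFR cells. The follicular arrays were above the others and TFR above TFH, by 1.18 ± 0.20 (adjusted p = 0.0181). Of 41 DNA replication genes, 22 rose and 1 fell in TFH cells and 32 rose and 0 fell in TFR cells, with medians of 0.58 and 1.27. Tk1 (thymidine kinase) rose by 3.59 ± 0.16 and 3.09 ± 0.16 and Rrm2 (ribonucleotide reductase) by 2.76 ± 0.12 and 2.68 ± 0.12. Pcna, the polymerase clamp, was at -0.06 ± 0.09 in TFH cells (adjusted p = 0.604) and rose by 0.49 ± 0.09 in TFR cells (adjusted p = 0.0125). The same list held Mcm10, Uhrf1, Lig1 and Gins2, which rose in both, Mcm10 by 2.74 and 3.06 and Uhrf1 by 2.26 and 2.49. In TFR over TFH cells 25 of the 41 were higher and 1 lower, beside 11.6% and 10.5% of all genes tested.

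Of 26 measured factors that make, process and decay histone mRNA, 3 rose and 3 fell in TFH cells, and 3 rose and 5 fell in TFR cells, with medians of -0.01 and -0.10. That is 23.1% and 30.8% called, below the 46.5% and 39.6% of all genes tested, and single values in TFR cells ran from -1.43 to 0.91. Slbp, whose protein binds the stem-loop, was at 1596 and 1536 RU in naïve cells, 2008 and 3155 RU in TFH cells, 1806 and 2153 RU in Tregs and 3116 and 3843 RU in TFR cells. It rose by 0.68 ± 0.18 (adjusted p = 0.0312) and 0.81 ± 0.18 (adjusted p = 0.023). Lsm11, a subunit of the U7 particle that cuts the mRNA past the loop, was at 1984 and 1684 RU in naïve cells and 1272 and 627 RU in TFH cells, a fall of 1.03 ± 0.27 (adjusted p = 0.0307), and did not pass in TFR cells (-0.27 ± 0.27, adjusted p = 0.465). Eri1, an exonuclease that trims the stem-loop, fell by 0.75 ± 0.08 and by 0.31 ± 0.08. Cstf2, a factor of cleavage and polyadenylation, fell by 0.71 ± 0.16 and by 0.79 ± 0.16. Npat, the coactivator of clustered histone genes, was at the floor of 20 RU on all arrays.

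Of 37 histone chaperone and assembly genes, 4 rose and 6 fell in TFH cells and 7 rose and 4 fell in TFR cells, or 27.0% and 29.7% called, also below the share of all genes. Among those that rose were replication-coupled chaperones: Chaf1a, of chromatin assembly factor 1, by 2.62 ± 0.18 and 2.76 ± 0.18, and Asf1b by 1.32 ± 0.11 and 2.05 ± 0.11. Cenpa, the centromeric H3, rose by 0.85 ± 0.19 and 1.25 ± 0.19. Daxx, a chaperone of the replacement H3, fell by 0.73 ± 0.08 and by 0.67 ± 0.08, and Npm1 by 1.00 ± 0.12 and by 0.44 ± 0.12.

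**Figure D5:**
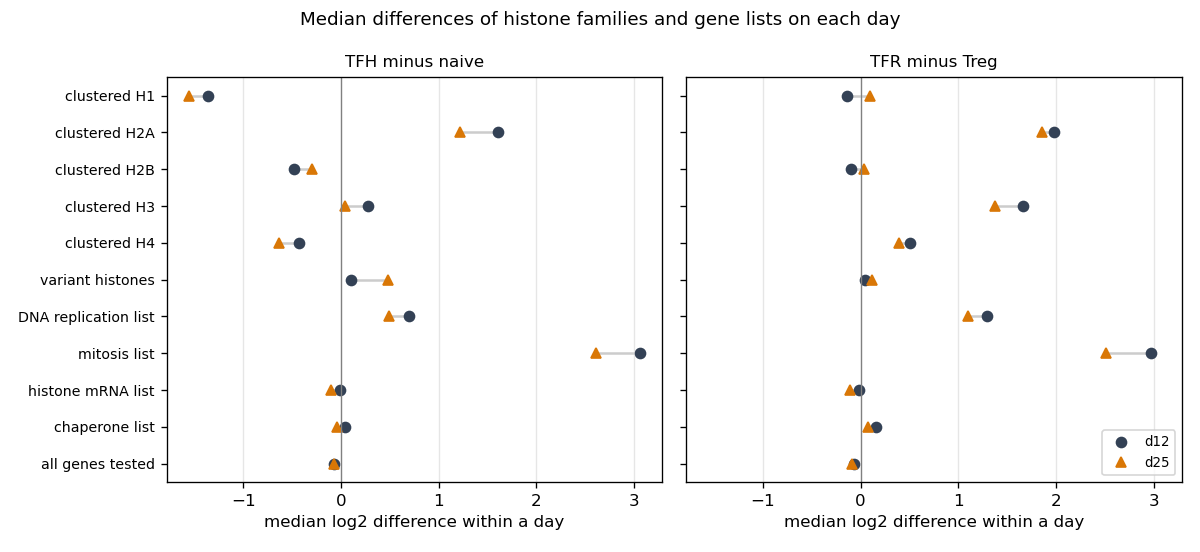
Median log2 difference within each day (x axis; circles d12, triangles d25) of the clustered families, the variant histones, 4 gene lists and all genes tested, for TFH minus naïve (left) and TFR minus Treg (right). Histone families are over genes on all 8 arrays, and the mitosis and replication lists lie to the right in both panels while the histone mRNA and chaperone lists lie near 0.

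Promoters were read from RefSeq (GRCm38.p6) for 37 clustered and 10 variant members, as 250 bases before and 50 after each gene's start, and searched on both strands for fixed letters. CCAAT was in 83.8% of the clustered promoters and 37.4% of all 32851, TATAAA in 56.8% and 13.6%, and the octamer ATTTGCAT in 29.7% and 1.74%. By family the octamer was in 5 of 7 H2B and 6 of 12 H2A promoters and in none of the H1, H3 or H4 promoters. CCAAT was in 2 of 8 H4 promoters and in all promoters of the other clustered families. TTTCGCGC, an E2F-type site, was in 4 of 12 clustered H2A promoters and 0.323% of all, and TTTGGCGC in none of the clustered ones and 0.514% of all. Among clustered genes called higher in TFH cells 4 of 11 held TTTCGCGC and among those called lower 0 of 14, but the 4 are H2A genes with near-identical probes. Of 3 chromosome 13 genes that moved differently, 280 bases are shown on the gene's strand, from 250 bases before the start, with the letters searched in capitals. The Hist1h2ah probe is assigned to 4 histone genes, so its direction may belong to genes other than the one shown.
Hist1h2ah (higher in both), chr13:22035614-22035893, minus strand: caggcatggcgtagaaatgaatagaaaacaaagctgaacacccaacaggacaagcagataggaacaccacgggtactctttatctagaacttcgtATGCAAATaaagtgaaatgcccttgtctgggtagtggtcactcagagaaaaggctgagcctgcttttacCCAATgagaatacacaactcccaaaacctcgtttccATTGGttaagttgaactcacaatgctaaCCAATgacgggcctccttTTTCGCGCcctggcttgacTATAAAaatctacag
Hist1h4d (lower in TFH, higher in TFR), chr13:23581318-23581597, plus strand: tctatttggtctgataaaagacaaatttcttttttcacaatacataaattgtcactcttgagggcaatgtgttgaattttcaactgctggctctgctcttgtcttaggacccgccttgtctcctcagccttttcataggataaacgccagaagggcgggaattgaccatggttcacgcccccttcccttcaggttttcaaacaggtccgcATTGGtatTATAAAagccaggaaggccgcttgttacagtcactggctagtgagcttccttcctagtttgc
Hist1h1c (lower in both), chr13:23738557-23738836, plus strand: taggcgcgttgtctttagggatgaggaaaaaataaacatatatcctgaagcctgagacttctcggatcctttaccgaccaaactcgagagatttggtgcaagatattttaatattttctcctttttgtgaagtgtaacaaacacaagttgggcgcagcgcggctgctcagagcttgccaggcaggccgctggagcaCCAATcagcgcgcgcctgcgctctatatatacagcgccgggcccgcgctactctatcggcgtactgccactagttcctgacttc
The Hist1h2ah promoter held every motif but the last, that of Hist1h4d the first and second, and that of Hist1h1c the first alone. Of the 54 members, 33 lie on chromosome 13 and 8 on chromosome 3 by their probe positions (mm9).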

How the data were processed

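RNA of 8 sorted, pooled lymph node samples was hybridized to one-colour Agilent arrays (Feature Extraction 10.7.3.1, per the file headers), and the authors deposited each array's scanner intensity with 4 spots for each of 39429 probes, and a table of normalized intensity in relative units (RU). Here the processed intensity was taken per spot, leaving out flagged spots, spots beyond 1.42 interquartile ranges and spots with a pixel CV over 0.5 (86.4 to 89.2% of spots kept). Geometric means of spots were quantile normalized, scaled so that the 75th percentile was 1500 RU, floored at 20 RU and put on the log2 scale. The deposited RU table served as an alternative.

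For each gene the probe with the highest mean log2 signal was used. Differences came from limma 3.58.1 in R 4.3.3, with cell type and day as terms over all 8 arrays (3 residual and 1.89 prior degrees of freedom), Benjamini-Hochberg adjusted over 15764 genes. Each cell type has 1 array per day, so the day term is also the replicate block. A call is an adjusted p below 0.05, and ± is the SE of the fit. A gene on no array of a group well above background has only a bound there: the brighter mean over the higher of the dim signal and the lowest signal well above background. Such a bound holds for the main processing alone. Under the alternatives a fitted difference could be smaller, down to log2 2.13 for Hist1h3g in TFR over Treg cells. The number of arrays limits the precision, and p-values measure only the spread between these pooled samples. Tables were processed with Python 3.11.15 and pandas 2.3.3, and the fit was tested on simulated data. Peyer's patch arrays were not analysed here.

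Members and gene lists were chosen with earlier results of these data known. Named were all 11 variant genes kept, the 15 clustered genes with the largest difference among those called in TFH over naïve or TFR over Treg cells and moving the same way on both days, up to 6 leading genes of each list and 6 fixed genes (Slbp, Npat, Pcna, Mki67, Top2a, Cenpa). Genes outside this rule are marked as named after their values were seen. Alternatives covered scaling, background correction, spot and probe filters, the mean of probes, the day term, the slide as a block, the variance prior, the deposited table and each array left out. Measuring each probe by itself was added after seeing the data.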

Additional observations from a re-analysis of the deposited data

Results flagged for a closer look

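For 11 genes detected on all arrays the change on becoming follicular differed between Foxp3+ and Foxp3- cells by the test of the difference itself (limma, log2 of TFR over Treg minus log2 of TFH over naïve cells). Of these, 7 encode H4: Hist1h4d at 1.09 (adjusted p = 0.0142), Hist1h4m at 1.06 (adjusted p = 0.0153), Hist2h4 at 0.98 (adjusted p = 0.0361), Hist1h4i at 0.94 (adjusted p = 0.0224), Hist4h4 at 0.91 (adjusted p = 0.0430), Hist1h4k at 0.86 (adjusted p = 0.0198) and Hist1h4c at 0.82 (adjusted p = 0.0463). The linker histone Hist1h1a had 2.27 (adjusted p = 0.00356), the H3 genes Hist1h3i and Hist2h3b had 1.96 (adjusted p = 0.0415) and 1.419 (adjusted p = 0.0156), and Hist2h2bb had 0.79 (adjusted p = 0.0494). A second, dimmer Hist2h2bb probe went the other way, with a larger fall in TFR than in TFH cells. The chosen probes of Hist1h4c, Hist1h4k, Hist1h4m and Hist2h3b are assigned to more than 1 histone gene, so these values are uncertain. The follicular sorts were GL7+ for TFH and GL7+ or GL7- for TFR cells, so Foxp3 status and GL7 gate cannot be told apart. In the other direction, H2afb1 had -3.11 and H1f0 -1.46, but both values rest on signals at the floor or not well above background in naïve cells, H2afb1 was kept through TFH cells alone, and the H1f0 call was lost in 9 of 17 alternatives.

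A further 3 genes had differences of opposite sign in TFH and TFR cells on both days, without both being called, and did not pass the test of the difference: Hist1h2bc at 1.34 (adjusted p = 0.0891), Hist1h4j at 1.20 (adjusted p = 0.0567) and Hist1h2ba at 0.48 (adjusted p = 0.101).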

How the results depend on the processing

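Of 63 called differences of named genes, 29 held under all alternatives, 34 were lost at least once and 0 reversed. Counts over the 54 histone genes moved more. The fit without the day term, so without the replicate block, gave 8 lower in TFH cells, 18 higher in TFR cells, 2 higher in TFR than TFH (2213 of all genes), 1 higher and 0 lower in Tregs than naïve (1000), and 0 positive and 1 negative interactions (807). With the slide as a block, TFR over TFH gave 3 higher and 1 lower (1349), Tregs over naïve 0 and 0 (523), and the interaction 5 and 1 (691). Without a filter on dim probes there were 10 lower in TFH cells, 2 lower in TFR cells (3870), 8 higher and 1 lower in TFR than TFH (1649), 1 and 1 in Tregs (702), and 4 and 1 interactions (418). Over genes on all 8 arrays, TFR over TFH gave 1 lower and the interaction 0 negative. A trended variance prior gave 8 lower in Tregs. With 75th percentile scaling, or with all spots kept, 1 was higher in Tregs. For d25 over d12, where limma called 0 higher and 1 lower, genes called lower were 17 with normexp (731), 17 over genes on all arrays (797), 22 with the trended prior (1 higher; 1095), 2 with 75th percentile scaling (28), 0 with all spots (6), 0 with the mean of probes (0) and 0 without the filter.

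Leaving out 1 array gave these ranges. TFH over naïve: 15 to 19 higher, 9 to 17 lower, 4309 to 6478 of all genes. TFR over Treg: 18 to 32 higher, 1 to 6 lower, 2494 to 6731. TFR over TFH: 1 to 22 higher, 1 to 3 lower, 942 to 2915. Treg over naïve: 0 to 6 higher, 0 to 5 lower, 416 to 1865. Interaction: 1 to 12 positive, 1 to 2 negative, 292 to 1093. No gene was called between days. The causes were not tested. Signal over background limits the 8 members not detected on all arrays.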
